A study of Schmidtea mediterranea with 15 samples.

Results

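A set of 120 transcript models, of 26671 measured in whole planarians (0.45%), was at least 4-fold lower 24 h after gamma irradiation than in unirradiated worms. Its members were chosen by their measured values: the mean RPKM (reads per kilobase of model length, on a scale that allows for library size) of the 3 libraries at 24 h and of the 3 libraries at 0 h gave log2((mean at 24 h + 0.5)/(mean at 0 h + 0.5)), and models at -2 or lower, 4-fold on this scale, were kept. The fall at 24 h is therefore a description and not a finding, and what follows turns on how these models behaved at 48, 72 and 96 h. The worms were of the CIW4 clonal line of the freshwater flatworm Schmidtea mediterranea, starved before use. Worms that had received 6000 rad of gamma rays were taken 24, 48, 72 or 96 h later, and unirradiated worms (0 rad) at 0 h, with 3 libraries of polyA RNA in each of these 5 groups. The labels give whole worms as the source, although the library protocol also names sorted cells. Whether a group's 3 libraries stem from separate cultures is not stated. Every p-value is thus a measure of the spread among these libraries only, and that spread may be technical. Unirradiated worms were taken at 0 h only, so that irradiation, elapsed time and any handling that goes with them cannot be told apart.

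Planarians keep a population of dividing adult stem cells, the neoblasts, which replace the cells of all tissues and are known for their sensitivity to ionising radiation. Their descendants pass through short-lived precursor states before they differentiate, and transcripts of stem cells and of precursors are known to leave an irradiated worm at different times. In RNA of whole worms, fewer cells of a type and less RNA per cell cannot be told apart. Models carry IDs only in the deposited table, without names. The 120 models are therefore described by level, time course and length, without any cell type or pathway, and the labelled tissue was not checked against marker genes.

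Whole reads could be recovered from the RPKM values of all 26671 models. The recovered total was 16435841 to 30707808 reads in an irradiated library and 9749391 to 13801926 reads in a 0 h library, so the unirradiated worms were sequenced less deeply throughout. Tests were run on the 21231 models that reached 1 RPKM or more in 3 or more libraries, with limma on log2(RPKM + 0.5), among them 119 of the 120. The remaining member, SMED30015520, had a mean of 0.0227 RPKM at 24 h, against 1.66 RPKM at 0 h. A model was called at a Benjamini-Hochberg adjusted p below 0.05 over all 21231 models.

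Most of the 120 were transcripts of low to moderate level. Their mean at 0 h had a median of 5.57 RPKM, with quartiles at 3.61 and 11.3 RPKM, against a median of 6.72 RPKM over all tested models. By level at 0 h, 5 models stood under 2 RPKM, 81 between 2 and 10 RPKM, 29 between 10 and 50 RPKM and 5 at 50 RPKM or more. The rule sets a lower bound on this level, since a model under 1.5 RPKM at 0 h could not meet it even at 0 RPKM. Recovered lengths spanned 150 to 4405 bases, and their median was 1231.5 bases, against 1129 bases for the tested models. In the members between the quartiles of level, the coefficient of variation of the 0 h libraries had a median of 10.6% (60 models). It was 8.35% in the 5587 other tested models in the same range of level, which were matched by level only. The 0 h libraries also chose the members, so nothing is read from this difference.

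**Figure D1:**
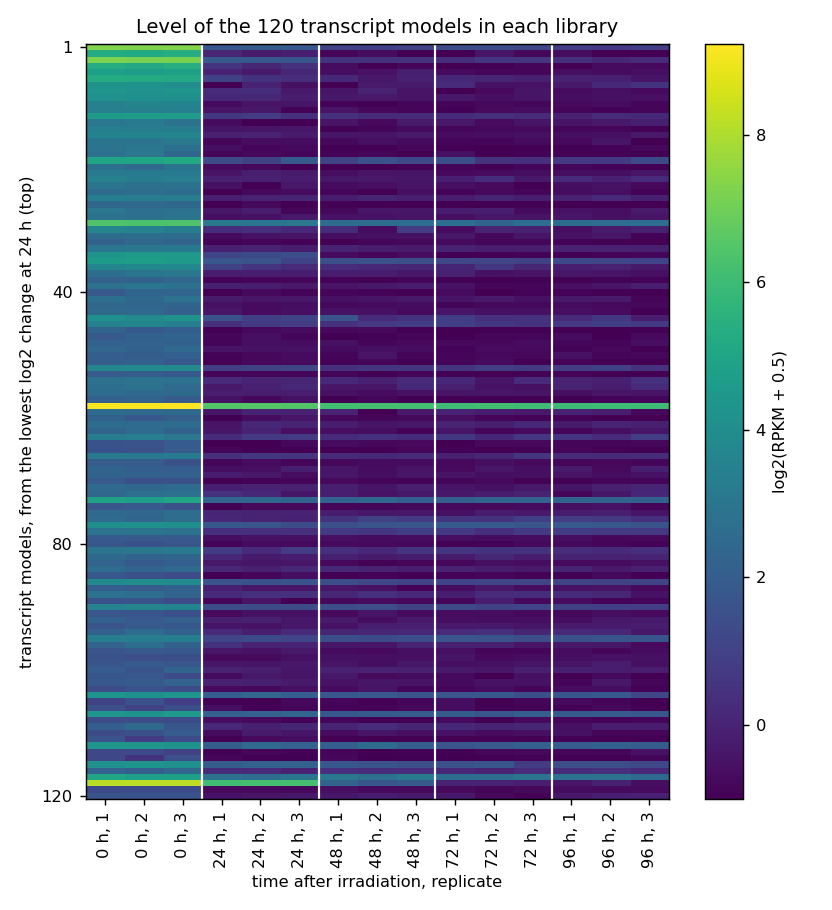
Level of each of the 120 transcript models, as log2(RPKM + 0.5), in each of the 15 libraries. Rows run from the lowest log2 change at 24 h (top) to the highest, and white lines part the 5 time points. The 3 columns at 0 h are the brightest in every row, and few rows keep a visible level in the 12 irradiated libraries.

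At 24 h the members had a median of 0.323 RPKM, against 5.57 RPKM at 0 h, and 78 of them had a mean under 0.5 RPKM. The change ran from -5.44 to -2.02 on the log2 scale with a median of -2.68, where the median over all tested models was -0.01. In limma's contrast of 24 h with 0 h, 119 of 119 members were lower, where 20.9% of all tested models were lower and 19.4% higher. Nothing is read from this count, because the same contrast chose the members. All 3 values at 24 h lay below all 3 at 0 h in 120 of 120 members, and in 24.9% of the tested models. The same libraries chose the members, so nothing is read from this either. The member just inside the threshold, SMED30026622, stood at 0.243 RPKM at 24 h, against 2.51 RPKM at 0 h (-2.02). The model just outside it, SMED30004223, stood at 0.0698 RPKM at 24 h, against 1.78 RPKM at 0 h (-1.999). Both were named because of their place at the threshold. The size of the set depends on the added 0.5 RPKM: with 0.1 RPKM the same rule gives 254 models, all 120 among them, and with 1 RPKM it gives 79, all of them among the 120.

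When 1 library was left out of the choice, the rule gave between 120 and 126 models, of which 114 to 119 belonged to the 120. The library left out had no part in that choice. With 24 h replicate 1, 2 or 3 left out, its own log2 change against the 0 h mean was -2 or lower in 108 of 120, 113 of 124 and 114 of 125 models. Over all 26671 models the same was true of 0.469%, 0.484% and 0.499%. With 0 h replicate 1, 2 or 3 left out and then used alone in place of the 0 h mean, the same held for 115 of 125, 107 of 126 and 107 of 122 models, and for 0.484%, 0.469% and 0.472% of all models. The highest change seen in any left-out library was -1.20. The libraries of the other group in each of these comparisons had part in the choice, so the counts are not free of it. The shares over all models are no separate background, because they hold the same models. With 24 h replicate 1, 125 of all models were at -2 or lower, and 108 of these were among the models chosen without it.

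The low level of the set was still present at each later time. In limma, 119 of 119 members were lower at 48, 72 and 96 h than at 0 h, where 19.5%, 21.5% and 22.2% of all tested models were lower. No member was higher at these times by limma, by an unadjusted p below 0.05 or by limma-voom on the recovered reads, and the last of these also called 119 of 119 lower at each time. With limma-voom, 19.3%, 21.0% and 22.1% of the tested models were lower at 48, 72 and 96 h and 18.9%, 20.1% and 21.1% higher; with limma, 20.5%, 22.1% and 22.7% were higher. The 48, 72 and 96 h libraries were not used by the rule, but the 0 h libraries were, so these counts are not free of the choice. A change of -2 or lower was kept by 114 members at 48 h, 117 at 72 h and 114 at 96 h. Over all 26671 models, 0.589%, 0.645% and 0.649% had such a change at these times. The median change of the members was -2.89 at 48 h, -2.86 at 72 h and -2.86 at 96 h, beside medians of 0.02, 0.02 and 0.03 over the tested models. All 3 values lay below all 3 at 0 h in 120 of 120 members at each of these times, where this held for 22.8%, 24.0% and 25.5% of the tested models.

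**Figure D2:**
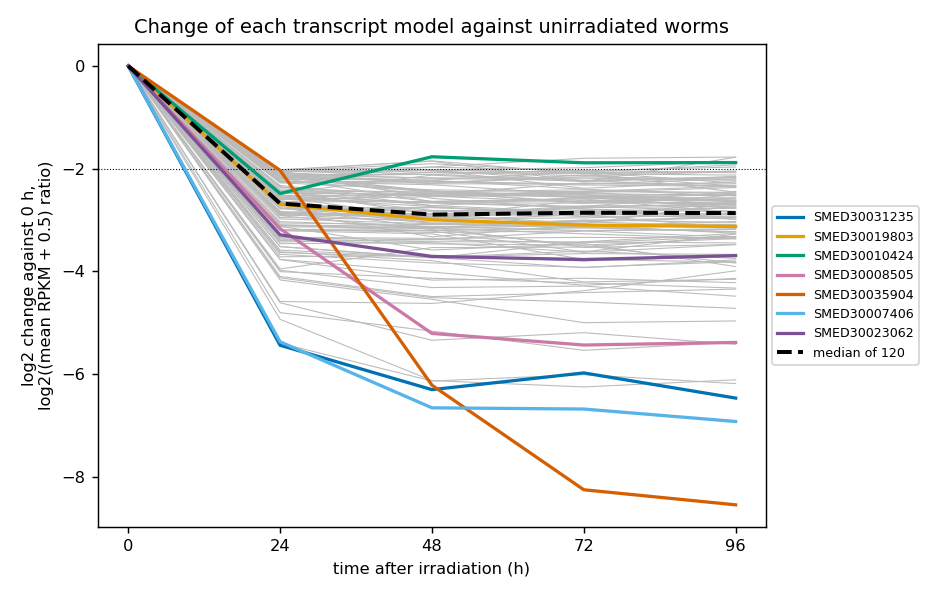
Change of each transcript model against 0 h, as the log2 ratio of (mean RPKM + 0.5), at the 5 time points. Grey lines are the 120 models, coloured lines the 7 models described singly, the dashed line the median and the dotted line the rule's threshold of -2. The median is -2.68, -2.89, -2.86 and -2.86 at 24, 48, 72 and 96 h, and SMED30035904 stands at -2.03 by 24 h and -8.54 by 96 h.

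The 120 models together took 2668 ± 7.81 RPM (reads per 1000000 recovered reads of the library; SD, n = 3) in unirradiated worms. After irradiation their sum was 236 ± 1.13 RPM by 24 h, 146 ± 1.27 RPM by 48 h, 134 ± 2.67 RPM by 72 h and 136 ± 3.47 RPM by 96 h. The 3 libraries of each time lay close together. Those of 24 h had 237, 236 and 235 RPM, against 2663, 2664 and 2677 RPM in those of 0 h. Of the mean in unirradiated worms, 8.85%, 5.47%, 5.03% and 5.10% was left at 24, 48, 72 and 96 h. The step between 24 and 48 h came for the most part from the 2 models most abundant at 0 h. Their sum was 638 ± 15.4 RPM in unirradiated worms, 118 ± 0.999 RPM by 24 h and 54.6 ± 0.204 RPM by 48 h. Of these 2, SMED30035904 had the larger fall, from a mean of 71.5 RPKM at 24 h to 3.47 RPKM at 48 h. The mean of SMED30019803 went from 88.8 to 72.0 RPKM. Without these 2, a choice made after their values were seen, the sum was 2030 ± 8.77 RPM in unirradiated worms, and 119 ± 2.05, 91.3 ± 1.19, 85.8 ± 3.50 and 87.6 ± 2.83 RPM at 24, 48, 72 and 96 h. The 78 models under 0.5 RPKM at 24 h took 679 ± 2.42 RPM in unirradiated worms, and 27.1 ± 0.568, 20.5 ± 1.12, 18.7 ± 0.693 and 21.3 ± 0.678 RPM at those times. The sums without the 2 most abundant models also lay lower at 48 h than at 24 h.

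**Figure D3:**
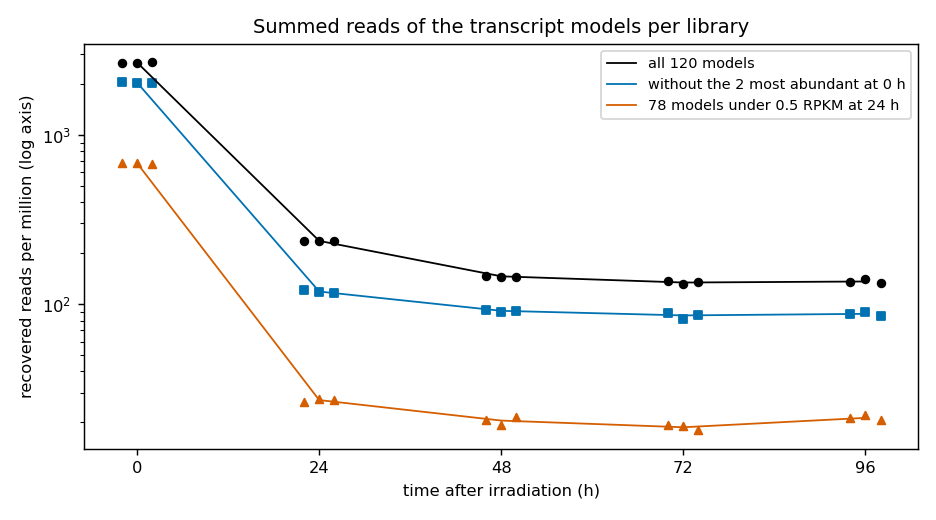
Summed recovered reads in RPM (log axis) against time after irradiation, with 1 point per library, set slightly apart for view, and lines through the group means. The sums are shown for all 120 models, without the 2 most abundant at 0 h, and for the 78 models under 0.5 RPKM at 24 h. Over the 120 models the libraries sit near 2668 at 0 h, near 236 at 24 h and between 131 and 147 from 48 h on.

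Single models kept different shares of their level at 0 h. At 96 h the share had a median of 3.69%, quartiles at 1.49% and 7.89% and a highest value of 25.7%, and 74 members were at or under 5%. By level at 0 h, the median share at 24 h was 1.84% for the 5 models under 2 RPKM, 5.40% for the 81 between 2 and 10 RPKM, 8.10% for the 29 between 10 and 50 RPKM and 9.69% for the 5 at 50 RPKM or more. Through its added 0.5 RPKM the rule sets an upper limit on the share at 24 h, and this limit rises with the level at 0 h. The order of the classes at 24 h is therefore not free of the choice. For the same classes the median share at 96 h was 2.54%, 3.72%, 4.20% and 0.812%. In the class of 5 models the median fell on different models, SMED30023062 at 24 h and SMED30031235 at 96 h. SMED30023062 kept 9.69% at 24 h and 7.18% at 96 h, and SMED30031235 kept 1.99% and 0.812%. Of the 120, 9 kept more than 15% at 96 h, with means of 0.379 to 6.18 RPKM at 96 h, against 2.51 to 28.6 RPKM at 0 h. The highest share belonged to SMED30002877, named after its values were seen. It had 10.02, 9.65 and 10.2 RPKM at 0 h, 1.69, 1.96 and 1.73 at 24 h, 2.27, 1.97 and 2.28 at 48 h, 2.71, 2.61 and 2.19 at 72 h and 2.39, 2.62 and 2.64 at 96 h. Its values at 96 h lay above those at 24 h and far under those at 0 h.

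At the other end, 3 members had no read in any library at 96 h, and they are named after their values were seen. SMED30031935 had 104, 79 and 97 reads in the 0 h libraries, a mean of 4.94 RPKM, and 0 reads in all 3 libraries at 96 h. With 3 counts over the group as the limit that a count of 0 allows, it was at least 203-fold lower at 96 h. SMED30020647 had 31, 15 and 23 reads at 0 h and 0 in all libraries at 72 and 96 h, and was at least 48.9-fold lower at 96 h. SMED30012024 had 14, 5 and 10 reads at 0 h and 0 in all libraries from 48 h on, and was at least 20.3-fold lower at 96 h. These limits cover counting error only. Over all 120 members, the reads summed over the 3 libraries of a time had medians of 279, 22, 22.5, 16.5 and 22 at 0, 24, 48, 72 and 96 h, so that most levels after irradiation rest on few reads.

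Between 24 and 48 h, 12 members were called lower and 1 was called higher. Limma called 12 of 119 members lower at 48 h than at 24 h, where 6.28% of the tested models were, and 1 higher, where 6.8% were. The 24 h libraries also chose the members, so neither count is free of the choice. Limma-voom called 19 lower and 2 higher, with 8.37% and 8.79% over the tested models. Of the 12, 11 were among the 42 members at 0.5 RPKM or more at 24 h. The 78 others were under 0.5 RPKM, where the log2(RPKM + 0.5) scale has no room for a 2-fold fall. The falls of the 12 ran from -4.20 to -0.30 with a median of -0.72, and in each of the 12 all 3 values at 48 h lay below all 3 at 24 h. The 5 models at 50 RPKM or more at 0 h were all among them. The other 7 had 13.7 to 39.03 RPKM at 0 h, 0.439 to 4.22 RPKM at 24 h and 0.0640 to 3.24 RPKM at 48 h.

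SMED30019803 was the most abundant member in unirradiated worms. It had 565, 563 and 600.0 RPKM at 0 h, 87.6, 91.0 and 87.9 at 24 h, 70.4, 73.2 and 72.2 at 48 h, 65.5, 69.1 and 65.9 at 72 h and 64.8, 66.6 and 65.6 at 96 h. Its values of 0, 24 and 48 h did not overlap with those of any other time, whereas the values of 72 and 96 h overlapped with each other. The fall from 24 to 48 h was -0.30 on the log2 scale (SE 0.03, limma adjusted p = 2.94e-05). A share of 11.4% of its level at 0 h was left at 96 h, where its libraries held 837 to 1502 reads. A further change of -0.13 at 96 h against 48 h passed the test (SE 0.03, limma adjusted p = 0.0207). That call was lost without 48 h replicate 2 (adjusted p = 0.1001), without 96 h replicate 1 (0.0875) or 3 (0.0702), and after quantile normalization (0.138).

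SMED30035904 was the second most abundant member and entered the set near its threshold. It is named after its values were seen. It had 287, 295 and 299 RPKM at 0 h, 68.0, 72.8 and 73.6 at 24 h, 4.34, 2.87 and 3.19 at 48 h, 0.490, 0.506 and 0.408 at 72 h and 0.268, 0.444 and 0.157 at 96 h. The groups did not overlap up to 72 h, whereas 1 value at 96 h lay within the range at 72 h. Relative to unirradiated worms its mean was lower by factors of 4.11, 84.7, 628 and 1013 at 24, 48, 72 and 96 h, the last from 6, 10 and 2 reads. The changes were -4.20 at 48 h against 24 h (SE 0.13, limma adjusted p = 9.55e-12) and -2.02 at 72 h against 48 h (SE 0.13, limma adjusted p = 6.73e-08). At 96 h against 72 h the change was -0.31 and did not pass the test (SE 0.13, limma adjusted p = 0.192).

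SMED30031235 had the lowest change at 24 h of the 120. Its level was 154, 152 and 156 RPKM at 0 h, 2.94, 3.24 and 3.04 at 24 h, 1.53, 1.36 and 1.50 at 48 h, 2.02, 2.02 and 1.84 at 72 h and 1.23, 1.14 and 1.38 at 96 h. Its mean in unirradiated worms was 50.2 times that of 24 h and 123 times that of 96 h. The course was not even, as the 72 h values lay above all those at 48 and 96 h. The changes were -0.86 at 48 h against 24 h (SE 0.07, limma adjusted p = 3.51e-06), 0.33 at 72 h against 48 h (adjusted p = 0.0351) and -0.49 at 96 h against 72 h (adjusted p = 0.00114). The rise at 72 h was lost in 12 of 22 other settings, among them each one that left out a 0 h or 48 h library or 72 h replicate 1 or 2 (limma adjusted p = 0.0620 to 0.122), and the highest adjusted p was 0.347, in a fit without the other time points. The later fall was lost in that same fit (adjusted p = 0.0731).

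SMED30007406 and SMED30023062 complete the 5 members at 50 RPKM or more at 0 h, and both are named after their values were seen. SMED30007406 had 147, 139 and 143 RPKM at 0 h, 3.08, 3.05 and 2.80 at 24 h, 0.932, 0.932 and 0.914 at 48 h, 0.765, 0.990 and 0.954 at 72 h and 0.799, 0.568 and 0.691 at 96 h. It fell by 1.28 on the log2 scale at 48 h against 24 h (SE 0.09, limma adjusted p = 4.72e-07), and no later contrast passed the test. SMED30023062 had 84.6, 79.6 and 81.3 RPKM at 0 h, 8.37, 7.51 and 7.93 at 24 h, 5.62, 5.99 and 5.80 at 48 h, 6.21, 4.46 and 5.97 at 72 h and 5.67, 5.92 and 6.05 at 96 h. It fell by 0.42 at 48 h against 24 h (SE 0.09, limma adjusted p = 0.00513) and stood at 7.18% of its level at 0 h at 96 h. SMED30007406 kept 0.480% at 96 h, so abundant members differed widely in what was left.

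SMED30008505 had the largest fall between 24 and 48 h among the members under 50 RPKM at 0 h, and is named after its values were seen. It had 19.3, 23.4 and 21.9 RPKM at 0 h, 1.69, 1.98 and 2.19 at 24 h, and 0.110, 0.0484 and 0.132 at 48 h. The change at 48 h against 24 h was -2.04 (SE 0.14, limma adjusted p = 2.22e-07), from 3, 1 and 4 reads at 48 h and 30, 51 and 38 reads at 24 h. It was listed at 0 in 2 of 3 libraries at 72 h and in 1 of 3 at 96 h.

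SMED30010424 was the 1 member called higher at 48 h than at 24 h. It had 5.40, 4.61 and 5.83 RPKM at 0 h, 0.641, 0.509 and 0.454 at 24 h, 0.930, 1.48 and 1.18 at 48 h, 0.933, 0.920 and 1.34 at 72 h and 1.30, 1.10 and 0.808 at 96 h. All values from 48 h on lay above all those at 24 h and below all those at 0 h. The rise was 0.71 on the log2 scale (SE 0.17, limma adjusted p = 0.0113). It rests on 29, 35 and 41 reads at 48 h and 13, 15 and 9 reads at 24 h. The call was lost without 48 h replicate 2 (log2 change 0.59, limma adjusted p = 0.0541), and a second member was called higher without 72 h replicate 2.

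**Figure D4:**
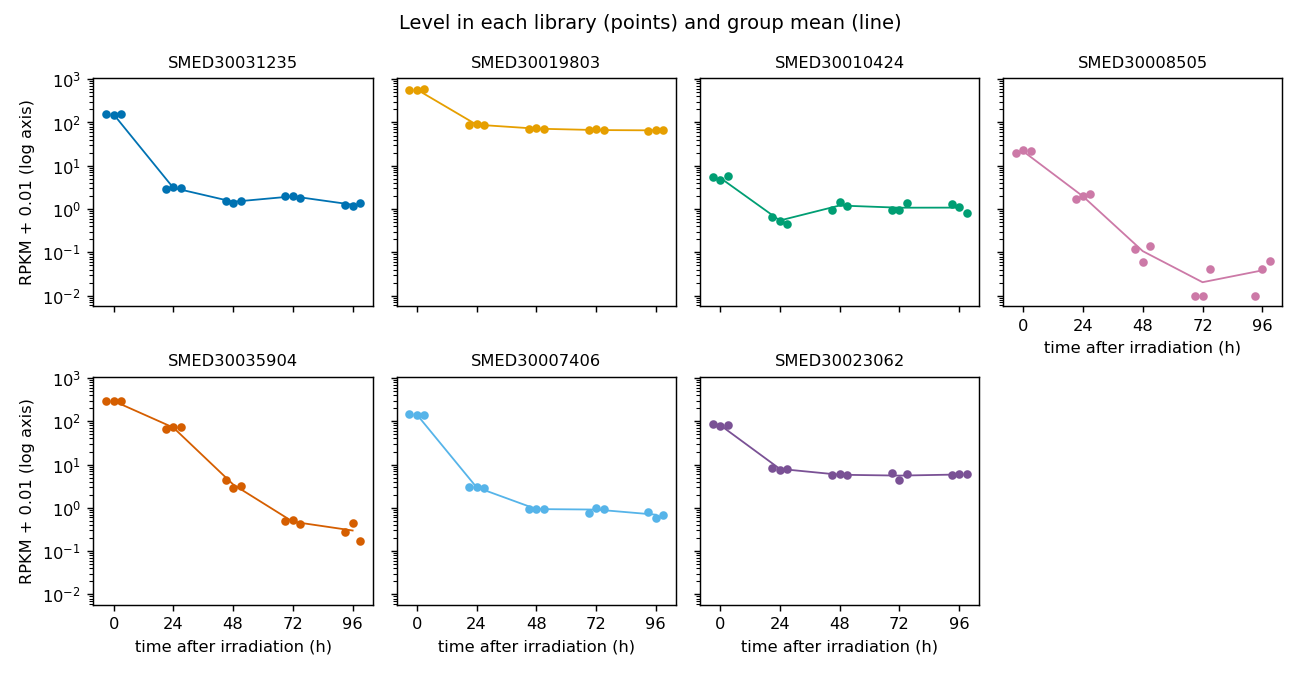
RPKM + 0.01 (log axis, shared by all panels) against time after irradiation for the 7 transcript models described singly. Points are libraries, set slightly apart for view, and lines join the group means. SMED30019803 averages 65.7 RPKM and SMED30035904 0.290 RPKM at 96 h, and SMED30010424 lies higher at 48 h than at 24 h.

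The differences in means among 48, 72 and 96 h used no library of the rule, and few members were called there. Limma took its spread from all 15 libraries, however, so the p-values are not free of the rule's libraries. The 3 libraries at 0 h alone could bring a member past the filter of 1 RPKM in 3 libraries. At 48 h the members had a median of 0.223 RPKM, against 6.29 RPKM over the tested models. The shares over the tested models are thus from models of mostly higher level. At 96 h against 48 h, 2 of 119 members were lower, SMED30019803 and SMED30035904, where 5.54% of the tested models were lower. No member was higher by limma, where 1.7% of the tested models were, and 2 were at an unadjusted p below 0.05. Limma-voom called 3 lower (7.14% of the tested models) and 0 higher (4.04%). The count of 2 became 1 without 96 h replicate 1 or 3. At 72 h against 48 h, 1 member was lower (1.4% of the tested models) and 1 higher (0.41%), and limma-voom called 2 lower (2.17%) and 0 higher (1.22%). At 96 h against 72 h, 1 member was lower (3.6%) and 0 were higher by limma (1.34%), with 1 higher at an unadjusted p below 0.05 and 1 higher without 72 h replicate 1. Limma-voom called 1 lower (5.49%) and 1 higher (3.46%) there. In the F test over 48, 72 and 96 h, 3 of 119 members were called, where 7.98% of the tested models were, and these were SMED30031235, SMED30019803 and SMED30035904. The other 116 members were called in none of these 4 tests.

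A p that misses the threshold does not show that their levels were equal. The change from 48 to 96 h in the 119 tested members had a median of -0.04 on the log2 scale, a range from -2.33 to 0.64 and a median SE of 0.17. At 48 h, 86 of the 120 members had a mean under 0.5 RPKM, too low for a 2-fold fall on this scale. Of the 42 members at 0.5 RPKM or more at 24 h, 2 were lower and 0 higher at 96 h than at 48 h, with a median change of -0.15. Among the 77 tested members under that level 0 were called in either direction, with a median change of -0.02.

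**Figure D5:**
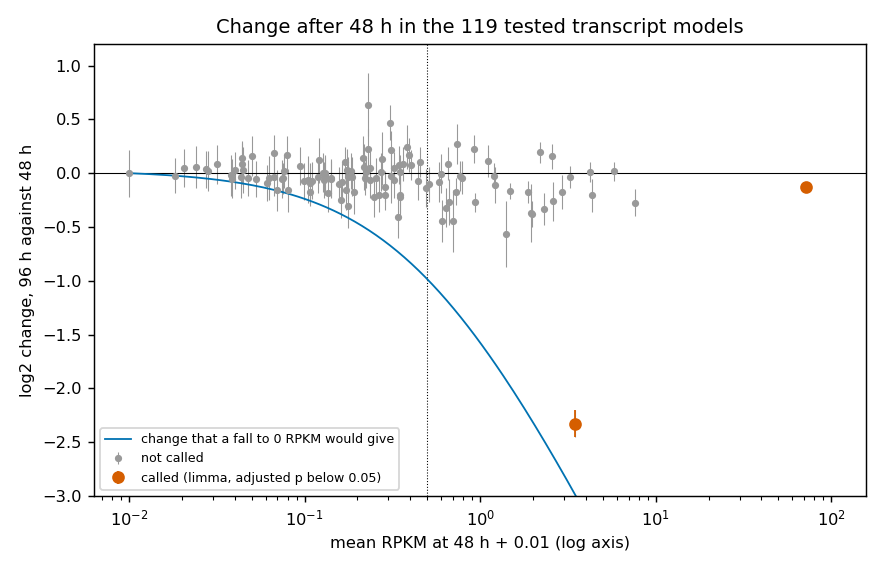
Log2 change at 96 h against 48 h, with its standard error from limma, against the mean RPKM at 48 h + 0.01 (log axis) for the 119 tested members. Orange points are the 2 called members, the dotted line marks 0.5 RPKM, and the blue line is the change that a fall to 0 RPKM would give. Left of the dotted line the scale leaves room for a fall of less than 2-fold.

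Of their level in unirradiated worms, the 120 members kept medians of 5.42%, 4.02%, 3.95% and 3.69% at 24, 48, 72 and 96 h. The next models by size of fall, 457 that were 2-fold to under 4-fold lower at 24 h by the same measure, kept medians of 31.2%, 31.5%, 28.0% and 29.9%. Both sets were chosen on their values at 24 h and share the 0 h libraries. At 96 h against 48 h, 2 of the 119 tested members were lower and 0 higher, beside 25 lower and 8 higher of the 386 tested models with the smaller fall. Over all tested models, 5.54% were lower and 1.7% higher. Of the 120 members, 86 had a mean under 0.5 RPKM at 48 h, where the scale leaves no room for a 2-fold fall. Whether the sets differ in these counts was not tested.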

How the data were processed

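PolyA RNA of whole worms was measured in 15 libraries, 3 at each of 5 times. The authors deposited RPKM values for 26671 transcript models. Tools named in the submitters' processing notes are CASAVA 1.8.2, Bowtie and edgeR, without roles. Not given in the sources used here are the transcript set, mapping settings, strand use and the treatment of reads with several matches. Models that are near-identical, overlap or lie antisense may share reads and are uncertain as single features. The library size behind the RPKM values was 0.974 to 1.03 times the recovered reads of a library, whereas the RPM sums use the recovered reads themselves. Both scales are relative, so total RNA per worm is not measured.

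Reads and lengths were recovered from the steps of the RPKM values, using 1136 models under 0.5 RPKM in every library. All 26671 models (100%) came out whole within 0.001 reads. Lengths ran from 60 to 23779 bases. The recovered reads per library were 9749391 to 30707808, and intervals and limits cover counting error only. Low levels have the least precision.

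Values were transformed as log2(RPKM + 0.5) and fitted with limma 3.58.1 (R 4.3.3), a mean per time point over all 15 libraries, variances with a trend, two-sided contrasts and Benjamini-Hochberg adjustment over the 21231 models (79.6%) that reached 1 RPKM in 3 or more libraries. Changes on this scale understate those of low models. The fitted steps were tested on simulated data. Alternatives were pseudocounts of 0.1 and 1 RPKM, no filter, quantile normalization, the median of 3 libraries in the rule, a fit to only the libraries compared, a replicate block, limma-voom on the recovered reads, and leaving out each library.

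The members and the tests were chosen with earlier results of these data known. The lists of marker genes could not be used without gene names. The rule for naming gave the member with the lowest change among those of at least 5 RPKM at 0 h (SMED30031235), the most abundant member at 0 h (SMED30019803) and, since no member was called higher at 96 h than at 48 h, up to 2 called higher at 48 h than at 24 h (SMED30010424). Other models were named after their values were seen, as the text says. Python 3.11.15, numpy 2.4.6, pandas 2.3.3 and matplotlib 3.10.9 were used.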

Additional observations from a re-analysis of the deposited data

Results flagged for a closer look

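Each result here stood out because the level of a model differed between 2 irradiated times in limma's direct contrast of them. Only models described singly in the results above are listed. Other members of the 12 called lower at 48 h than at 24 h met the same condition, among them SMED30002436 with a change of -1.19. For 48 h against 24 h the 24 h libraries had also chosen the members. SMED30035904 changed by -4.20 on the log2 scale at 48 h against 24 h, by -2.02 at 72 h against 48 h and by -2.33 at 96 h against 48 h. SMED30008505 changed by -2.04, SMED30007406 by -1.28, SMED30023062 by -0.42 and SMED30019803 by -0.30 at 48 h against 24 h, and SMED30019803 also by -0.13 at 96 h against 48 h. SMED30031235 changed by -0.86 at 48 h against 24 h, by 0.33 at 72 h against 48 h and by -0.49 at 96 h against 72 h. SMED30010424 changed by 0.71 at 48 h against 24 h. Of these results, the rise of SMED30010424, the change of SMED30019803 at 96 h against 48 h and the rise of SMED30031235 at 72 h lost their call when single libraries were left out, as given in the results above.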

How the results depend on the processing

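The counts of members lower and higher than at 0 h at 48, 72 and 96 h were 119 and 0 under every alternative run except no filter, where all 120 members were tested and the counts were 120 and 0. The number of members was 254 with a pseudocount of 0.1 RPKM and 79 with 1 RPKM. The median change at 24, 48, 72 and 96 h against 0 h was -3.59, -3.93, -3.97 and -4.01 with 0.1 RPKM, -2.16, -2.32, -2.27 and -2.30 with 1 RPKM, and -2.57, -2.82, -2.77 and -2.82 after quantile normalization. With 1 library left out it ran from -2.73 to -2.67 at 24 h and from -2.88 to -2.82 at 96 h. With limma-voom, 19 members were lower and 2 higher at 48 h against 24 h, 2 lower and 0 higher at 72 h against 48 h, and 1 higher at 96 h against 72 h. The count higher at 72 h against 48 h was also 0 with no filter and when the other time points were left out of the fit. In that narrower fit the count lower at 96 h against 72 h was 0 and the F test called 1. After quantile normalization 1 member was lower at 96 h against 48 h. With 1 library left out, the members higher numbered 0 to 2 at 48 h against 24 h, 0 to 1 at 72 h against 48 h and 0 to 1 at 96 h against 72 h, and those lower at 96 h against 48 h numbered 1 to 3. The cause of these differences was not tested. Deviations from the group means correlated at -0.0628 to 0.110 between libraries with the same replicate number and at -0.137 to 0.0628 between those with different numbers. Of 15 libraries, 6 correlated best with their own number. These correlations do not settle whether replicate numbers pair the libraries. The 12 members lower at 48 h against 24 h became 8 in the narrower fit and 8 to 13 with 1 library left out (8 without 48 h replicate 3). With the replicate block, 13 members were lower and 1 higher at 48 h against 24 h, and 0 were higher at 72 h against 48 h. Depth limits what can be said of changes after 24 h, since the members then had a median of 16.5 to 22.5 reads over the 3 libraries of a time.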
